A study of Mus musculus with 6 samples.

Results

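The cyclins and kinases of the G1 phase were examined in sorted bone marrow stem and progenitor cells of wild-type (WT) mice and of HDAC6-deficient mice; HDAC6 deacetylates proteins and acts mostly in the cytoplasm. The set holds 10 genes named by symbol: the D cyclins Ccnd1, Ccnd2 and Ccnd3, the E cyclins Ccne1 and Ccne2, the kinases Cdk2, Cdk4 and Cdk6, the retinoblastoma gene Rb1 and the phosphatase gene Cdc25a. Of the 16022 genes in the deposited table all 10 were found, and all 10 passed the filter on low counts that left 12875 genes for testing. RNA sequencing was done on LSK cells, the bone marrow fraction without lineage markers and with high Sca-1 and c-kit, in 3 WT libraries (labelled controls) and 3 HDAC6 knockout libraries. No treatment is named for either group, and strain, age, sex, the deleted part of Hdac6 and any pooling of animals were not given in the sources used here. Since the labels do not say that the libraries came from separate animals, p-values measure only the spread between these libraries, which may be technical.

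Cells leave quiescence through G1. D cyclins, made in answer to growth factors, bind Cdk4 or Cdk6 and start to phosphorylate the retinoblastoma protein, which holds E2F transcription factors in check. Freed E2F switches on the genes of S phase and also cyclin E, which activates Cdk2 and completes the phosphorylation, while Cdc25a removes inhibitory phosphates from Cdk2. In hematopoietic stem cells most of the pool is quiescent, and Cdk6 is known for setting how fast these cells leave that state.

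Ccne1, which encodes cyclin E1, was the member with the largest difference: its mean was 2.80-fold higher in the knockout, and each knockout library lay above each WT library. It did not pass the test over all genes with edgeR (adjusted p = 0.298). The other 9 members differed less, from a log2 fold change of -0.29 for Ccnd2 to 0.34 for Ccnd3. For each of these 9 the libraries of the 2 groups overlapped on TMM-scaled counts. By edgeR 0 of 10 members were called, where 0.00777% of all 12875 genes were called, a share that is Hdac6 alone. DESeq2, run as an alternative, called Ccne1 higher (adjusted p = 0.000413) and none of the other 9, where it called 0.897% of all genes with an adjusted p higher and 0.456% lower. The limma test on log2(FPKM + 1) called 0 members.

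Promoter sequences are shown for Ccne1, the member that differed most, and for Cdc25a, Cdk2 and Cdk4, to compare the elements before their starts. For Cdc25a, Cdk2 and Cdk4 the groups overlapped on TMM-scaled counts. RefSeq windows of 300 bases on GRCm38.p6, from 250 bases before the start to 50 after it, were matched for 6 members (7 windows, since Ccnd3 has a pair of starts). No window was used for Ccnd1, Ccnd2, Ccne2 and Rb1. Sequences run 5′ to 3′ along the gene. In the Ccne1 window capitals mark the GC box GGGCGG, bound by Sp1-type factors, on either strand. In the other windows they mark the E2F cores TTCCCGC and TTGGCGC and the E-box CACGTG, bound by Myc, on either strand.
Ccne1 (chr7:38107441-38107740, minus strand): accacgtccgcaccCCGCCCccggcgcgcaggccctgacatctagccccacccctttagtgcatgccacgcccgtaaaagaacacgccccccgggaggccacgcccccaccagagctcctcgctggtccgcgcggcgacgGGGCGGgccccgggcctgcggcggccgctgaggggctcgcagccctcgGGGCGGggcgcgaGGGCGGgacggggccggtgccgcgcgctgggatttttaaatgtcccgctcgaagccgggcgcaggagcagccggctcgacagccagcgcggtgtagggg
Cdc25a (chr9:109875329-109875628, plus strand): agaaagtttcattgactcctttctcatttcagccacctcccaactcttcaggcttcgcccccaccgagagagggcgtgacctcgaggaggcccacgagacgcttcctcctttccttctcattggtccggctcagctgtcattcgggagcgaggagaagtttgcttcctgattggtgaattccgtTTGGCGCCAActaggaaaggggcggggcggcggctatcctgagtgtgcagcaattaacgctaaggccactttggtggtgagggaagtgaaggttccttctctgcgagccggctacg
Cdk2 (chr10:128705002-128705301, minus strand): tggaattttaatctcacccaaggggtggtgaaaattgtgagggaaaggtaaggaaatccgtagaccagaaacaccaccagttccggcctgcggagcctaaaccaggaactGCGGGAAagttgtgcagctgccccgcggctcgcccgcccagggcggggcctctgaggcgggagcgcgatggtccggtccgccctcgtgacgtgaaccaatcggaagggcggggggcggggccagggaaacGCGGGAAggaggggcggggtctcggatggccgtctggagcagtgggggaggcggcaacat
Cdk4 (chr10:127063285-127063584, plus strand): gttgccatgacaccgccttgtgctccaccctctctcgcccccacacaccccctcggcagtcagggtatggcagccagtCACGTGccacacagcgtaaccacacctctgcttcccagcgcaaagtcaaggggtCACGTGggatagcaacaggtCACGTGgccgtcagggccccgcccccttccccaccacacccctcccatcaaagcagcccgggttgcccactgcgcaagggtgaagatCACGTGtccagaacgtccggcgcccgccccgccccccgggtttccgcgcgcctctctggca

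The Ccne1 window held 4 GC boxes and none of these E2F cores or E-boxes. GC boxes were not particular to it: the Cdk2 window held 6, Cdk4 3 and Cdc25a 2, which are left in lower case. In the 4 windows shown no E2F core or E-box overlapped a GC box. Cdc25a held 2 matches of TTGGCGC, which overlap as a palindrome, and Cdk2 held 2 of TTCCCGC. Cdk4 held 4 E-boxes, and the Cdk6 window held 1. Of 32851 windows of this length, 6.8% held an E2F core, 7.2% an E-box and 35.7% a GC box, against 2, 2 and 6 of the 7 windows of the members. These are matches of letters only, and a missing match says nothing of whether a factor binds.

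The targeted gene was checked first. Hdac6 stood at 67.97, 58.24 and 54.32 CPM (counts scaled to a common library size, with TMM factors) in WT replicates 1 to 3 and at 9.62, 7.69 and 11.28 CPM in the knockout replicates. It was 6.31-fold lower in the knockout, with separate groups, and passed the edgeR test (log2 fold change -2.66, SE 0.19, adjusted p = 0.000594). Here values after ± are SDs over the 3 libraries of a group. Total counts ran from 25993988 to 28743694 per library. Ly6a, which encodes Sca-1, ran from 60.3 to 119 CPM and Kit from 725 to 1367 CPM, while Cd3d, Cd3e and Cd3g, which mark T cells, stood between 0 and 0.47 CPM and Ms4a1, of B cells, between 0 and 0.49 CPM. Knockout replicate 2 had 14157 CPM of Mpo, a myeloid granule gene, against 4277 to 6581 CPM elsewhere. Knockout replicate 3 stood closer to the WT libraries than the other knockout libraries did: chi-square over degrees of freedom, a measure of the difference between libraries, was 25.8 to 35.5 between it and the WT libraries and 53.8 to 58.4 between it and the other knockout libraries. In bulk RNA a change in the share of cycling cells and a change in RNA per cell cannot be told apart.

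On the deposited FPKM, which divide by gene length and so allow levels of different genes to be compared, the members spanned a wide range. In WT Cdk4 was highest at 628 ± 37.8 FPKM, followed by Ccnd3 (223 ± 43.4), Cdk2 (125 ± 4.88), Ccnd2 (115 ± 8.54), Cdk6 (85.8 ± 17.2), Ccne2 (25.1 ± 1.72), Cdc25a (8.20 ± 1.62), Ccnd1 (4.92 ± 0.68), Ccne1 (4.73 ± 0.71) and Rb1 (1.00 ± 0.13). Library ranges of neighbours in this order were separate except for Cdk2 with Ccnd2 and Ccnd1 with Ccne1. The order in the knockout was the same for the first 3 genes, for Ccne2 in sixth place and for Rb1 in the last. Ccne1 moved up: it ranked 8, 9 and 9 of the 10 in WT replicates 1 to 3 and 7 in each knockout library. There it overtook Ccnd1 in mean, at 12.5 ± 4.09 against 5.52 ± 1.47 FPKM, and its range still met that of Cdc25a (7.75 ± 0.60 FPKM). Cdk6 and Ccnd2 changed places in mean with overlapping ranges (93.7 ± 4.69 and 89.9 ± 14.9 FPKM).

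**Figure D1:**
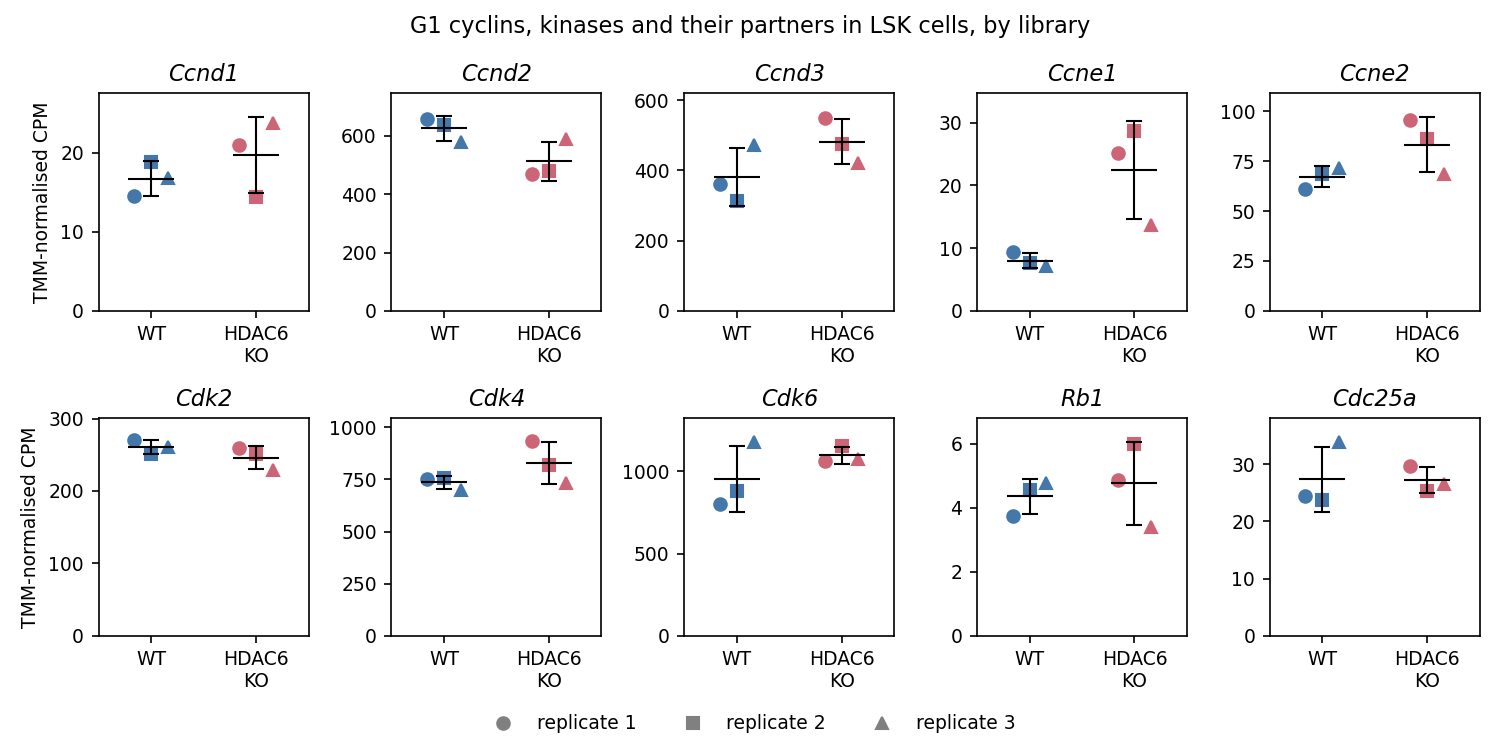
Level of each member in TMM-normalised CPM (vertical axis, from 0, with its own scale per gene) in the 3 WT and 3 HDAC6 knockout libraries; each point is a library, the horizontal line the mean and the bar the SD. Ccne1 is the gene whose knockout points (13.67 to 28.60) all lie above the WT points (7.12 to 9.33).

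The D cyclins carry the growth signal into G1. Ccnd2, the main D cyclin of many early blood cells, measured 658.15, 639.21 and 579.21 CPM in WT against 469.92, 479.34 and 590.19 CPM in the knockout. Knockout replicates 1 and 2 lay below all WT libraries and knockout replicate 3 lay within their range. The log2 fold change was -0.29 (SE 0.11, 95% interval -0.54 to -0.03 before any adjustment, edgeR adjusted p = 0.34). Without knockout replicate 3 it was -0.40 (edgeR adjusted p = 0.075), and without knockout replicate 1 it was -0.23 (edgeR adjusted p = 0.672).

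Ccnd3, a D cyclin known for its part in lymphocyte and erythroid precursors, went the other way. It measured 360.19, 312.57 and 471.55 CPM in WT against 550.04, 475.86 and 420.62 CPM in the knockout. WT replicate 3 lay above knockout replicate 3, so the groups overlapped, and the log2 fold change was 0.34 (SE 0.16, interval -0.01 to 0.69, edgeR adjusted p = 0.378). It was 0.53 without WT replicate 3 and fell short of that, at 0.22, without WT replicate 2. Ccnd1, cyclin D1, was scarce, with 14.47, 18.88 and 16.81 CPM in WT against 20.97, 14.36 and 23.71 CPM in the knockout. Its log2 fold change of 0.24 (SE 0.23) came to 0.08 when knockout replicate 3 was left out to 0.14 when WT replicate 1 was and to 0.42 when knockout replicate 2 was, so single libraries set its size. Knockout replicate 2 was the lowest of all 6 libraries and the other 2 knockout libraries the highest.

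The make-up of the D cyclin pool shows the opposite signs of Ccnd2 and Ccnd3 together. Ccnd3 took 62.72%, 60.14% and 71.14% of the summed D cyclin FPKM in the WT libraries and 77.71%, 75.20% and 68.14% in the knockout libraries. Ccnd2 took 36.01%, 38.06% and 27.58% in WT and 20.81%, 23.66% and 29.94% in the knockout. In both shares WT replicate 3 and knockout replicate 3 crossed, and the other libraries were separate. The mean share of Ccnd3 was 9.01 percentage points higher in the knockout (exact two-sided permutation p = 0.2) and the difference for Ccnd2 was -9.08 points (exact permutation p = 0.2), both 0.333 when adjusted over the 5 shares computed. With 3 against 3 the smallest exact p is 0.1. The summed D cyclin FPKM was 343 ± 35.5 in WT and 364 ± 19.3 in the knockout, and these ranges overlapped.

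**Figure D2:**
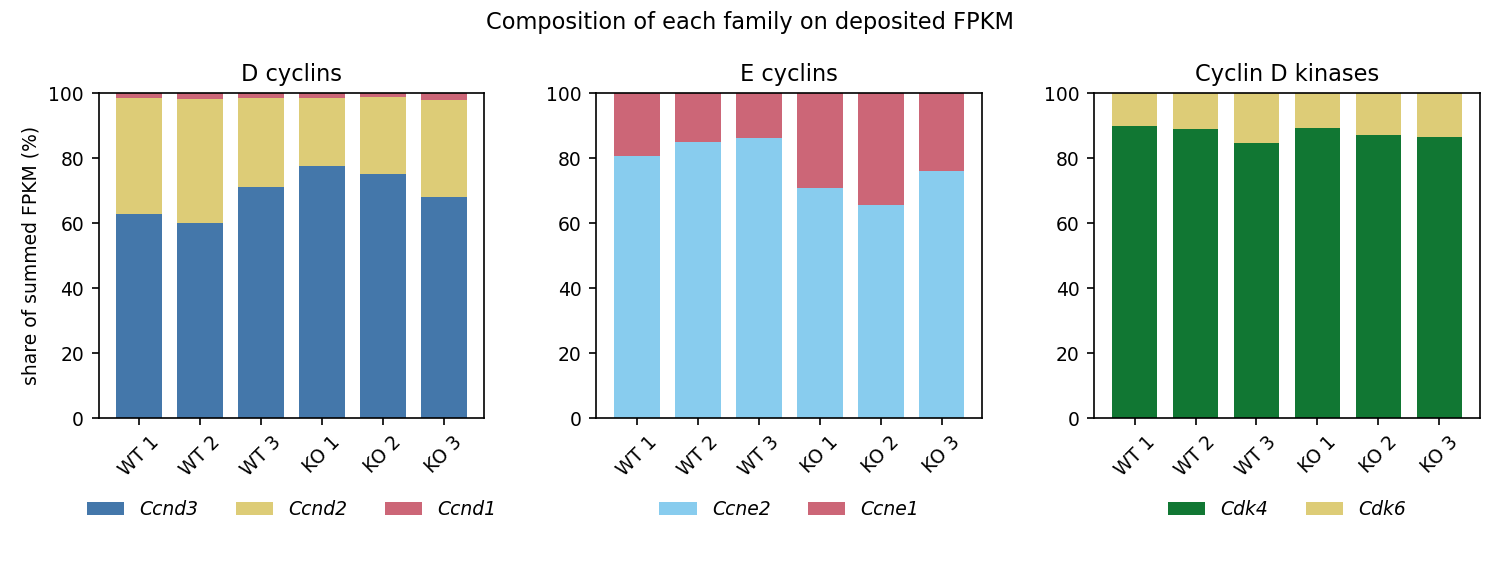
Share of the summed deposited FPKM (vertical axis, percent) taken by each D cyclin, each E cyclin and each cyclin D kinase in the 6 libraries (horizontal axis). Ccne1 takes 13.59% to 19.24% of the E cyclin sum in WT and 24.01% to 34.36% in the knockout, while the Cdk6 share of the kinase sum overlaps between the groups.

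The E cyclins act after the D cyclins and bind Cdk2. Ccne1 had 260, 215 and 188 counts in WT and 686, 789 and 377 in the knockout, which is 9.33, 7.60 and 7.12 CPM against 25.19, 28.60 and 13.67 CPM. Knockout replicate 3 was the lowest of its group and still above the highest WT library. The mean was 8.02 ± 1.17 CPM in WT against 22.5 ± 7.83 CPM in the knockout; the log2 fold change was 1.49 (SE 0.28, interval 0.86 to 2.12). Its unadjusted p of 0.000359 ranked 13 among the 12875 genes tested by edgeR. Without knockout replicate 3 the log2 fold change was 1.75 and edgeR called the gene (adjusted p = 0.0375). The edgeR adjusted p was 0.246 to 0.744 without each of the other 5 libraries in turn.

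In CPM Ccne1 was the 1 member of 10 whose knockout libraries all lay above the WT libraries, and 0 had the reverse. Over all tested genes 8.86% lay wholly above and 9.70% wholly below, so 1 of 10 is near the background. At an unadjusted edgeR p below 0.05 there was 1 member higher (Ccne1) and 1 lower (Ccnd2), where 7.24% of all genes were higher and 6.15% lower at that level.

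Ccne2, cyclin E2, which shares the task of Ccne1 and can stand in for it in mice, was the more abundant E cyclin in all 6 libraries. It measured 61.25, 68.67 and 71.43 CPM in WT against 95.62, 86.03 and 68.31 CPM in the knockout, where replicate 3 again fell into the WT range. Its log2 fold change was 0.31 (SE 0.15, edgeR adjusted p = 0.379), and ran from 0.20 without knockout replicate 1 to 0.44 without knockout replicate 3. Ccne1 took 19.24%, 14.90% and 13.59% of the summed E cyclin FPKM in WT and 29.18%, 34.36% and 24.01% in the knockout. All 3 knockout shares lay above the WT shares (exact permutation p = 0.1, the smallest possible, and 0.333 adjusted over the 5 shares). The summed E cyclin FPKM ran from 28.6 to 30.5 in WT and from 33.1 to 47.3 in the knockout (exact permutation p = 0.1).

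Among the kinases, Cdk4 measured 754.16, 755.22 and 697.20 CPM in WT against 937.08, 817.44 and 733.30 CPM in the knockout. Knockout replicates 1 and 2 were the highest libraries and replicate 3 lay in the WT range, with a log2 fold change of 0.17 (SE 0.11, interval -0.07 to 0.41, edgeR adjusted p = 0.494). Without knockout replicate 1 it was 0.08, and 0.26 without knockout replicate 3. Cdk6 measured 802.31, 880.67 and 1182.27 CPM in WT against 1061.56, 1156.98 and 1077.81 CPM in the knockout. Its highest and lowest values were both in WT, so all knockout libraries lay inside the WT range, and the log2 fold change was 0.20 (SE 0.14, interval -0.10 to 0.51). It was 0.39 without WT replicate 3 and 0.09 without WT replicate 1.

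Cdk6 took 12.1% ± 2.77 of the summed Cdk4 and Cdk6 FPKM in WT and 12.3% ± 1.48 in the knockout, a difference of 0.23 points (exact permutation p = 0.9) that ran from -0.77 to 1.82 points with single libraries left out. Cdk2, the partner of cyclin E, measured 270.93, 250.37 and 260.70 CPM in WT against 258.81, 250.98 and 228.56 CPM in the knockout. Its log2 fold change was -0.08 (SE 0.10, interval -0.30 to 0.13), and it ran from -0.12 without knockout replicate 1 to -0.03 without knockout replicate 3. On the deposited FPKM the Cdk2 libraries did not overlap (121.17 to 130.29 in WT, 107.93 to 115.55 in the knockout), as held on the lower side for 12.2% of all genes on that scale. FPKM carry no TMM scaling, whose factors were 1.017 to 1.034 in WT and 0.952 to 1.012 in the knockout, so the separation of Cdk2 depends on the scaling.

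**Figure D3:**
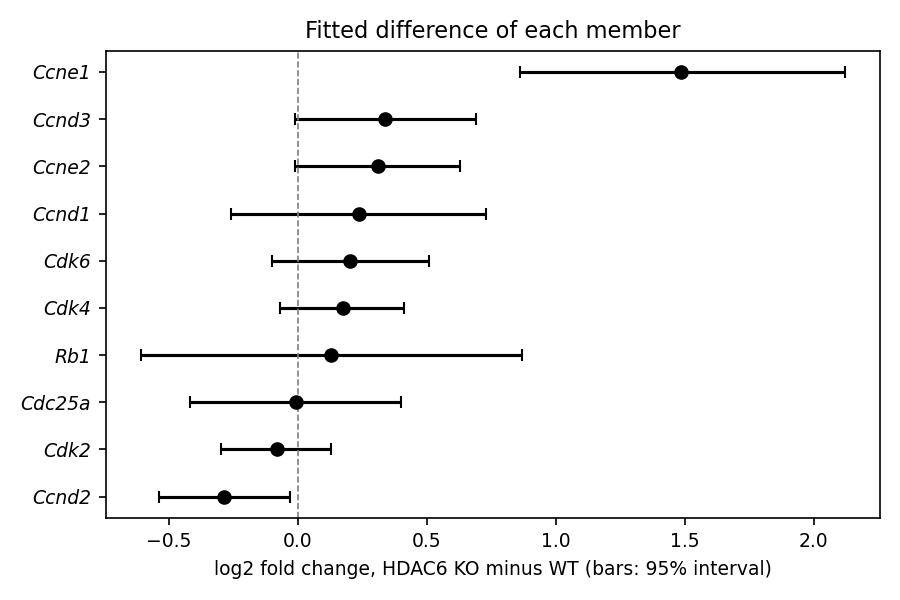
Log2 fold change of each member, knockout minus WT, from the edgeR fit (horizontal axis), with 95% intervals as bars before any adjustment for the number of genes. Ccne1 stands at 1.49 (0.86 to 2.12), and the intervals of the others include 0 except that of Ccnd2 (-0.54 to -0.03).

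The other 2 members are the substrate and the activating phosphatase. Rb1 had 104, 129 and 126 counts in WT and 133, 165 and 94 in the knockout. Knockout replicate 2 was the highest and knockout replicate 3 the lowest of all 6, and the log2 fold change of 0.13 (SE 0.33, interval -0.61 to 0.87) was set by single libraries. It was -0.07 without knockout replicate 2, 0.32 without knockout replicate 3, 0.03 without WT replicate 1 and 0.21 without WT replicate 3. Its relatives Rbl1 and Rbl2, which encode p107 and p130, stood far above it per length, at 33.8 ± 5.64 and 37.5 ± 1.46 FPKM in WT against 1.00 ± 0.13 FPKM for Rb1. Cdc25a measured 24.38, 23.80 and 33.99 CPM in WT against 29.78, 25.30 and 26.54 CPM in the knockout, all 3 inside the WT range. Its log2 fold change was -0.01 (SE 0.18, interval -0.42 to 0.40), and the sign turned in 5 of 14 alternatives.

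Counting could affect some members. In GENCODE M21, an annotation of GRCm38, exons of Ccnd1, Ccne2, Cdk4 and Rb1 share 23.4%, 17.4%, 19.7% and 14.9% of their bases with protein-coding genes on the opposite strand, those of Ccnd3 4.1% (with Bysl) and those of Cdk2 0.5%, while Ccnd2 and Cdk6 share 7.9% and 2.6% with antisense genes. Since the strand setting of the counting was not given in the sources used here, reads of these pairs cannot be told apart. Ints8, which overlaps Ccne2, had 13.8 ± 2.61 CPM in WT against 16.1 ± 2.57 CPM in the knockout, and Bysl 68.7 ± 5.58 and 80.4 ± 18.3 CPM, a log2 fold change of 0.23 for both genes. Tspan31, which overlaps Cdk4, was at 0.09. LTO1, which has the largest overlap, with Ccnd1, was at -0.16, Lpar6 and Rcbtb2, which overlap Rb1, were at -0.25 and -0.12, and Pmel, which overlaps Cdk2, at -1.16. The signs of LTO1, Lpar6 and Rcbtb2 were opposite to those of their G1 genes. Exons of Ccne1 and Cdc25a shared 0% with any other gene. Deposited counts of Ccnd1, Ccnd3, Ccne2 and Cdk6 were not whole in at least 3 libraries, and those of the other 6 members were whole in all.

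By library, the knockout members did not move together. In knockout replicate 1, 6 members lay above all WT libraries and 1 below, and in replicate 2 it was 5 above and 2 below. In replicate 3 it was 2 above (Ccnd1 and Ccne1), 2 below (Cdk2 and Rb1) and 6 within the WT range. The share of all genes outside the WT range was not computed for single libraries, so these counts have no background beside them. Against the WT libraries, chi-square over degrees of freedom over all tested genes was 56.3 to 88.5 for knockout replicate 1. It was 54.7 to 91.4 for replicate 2 and 25.8 to 35.5 for replicate 3. The median log2 fold change over the 10 members was 0.19, with 7 above 0 and 3 below. Over all 12875 genes the median was 0.00, with 6370 above 0. The mean of log2 CPM over the members, relative to each gene's mean in all libraries, was 0.21, 0.17 and -0.02 in knockout replicates 1 to 3 and -0.17 to -0.09 in WT. Without Ccne1 it was 0.13, 0.06 and -0.03 against -0.13 to -0.01, so knockout replicate 3 then lay within the WT range.

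Downstream of the members, 20 of 22 E2F target genes had positive log2 fold changes (median 0.25), and 9 had knockout libraries wholly above WT and 0 wholly below, where 49.5% of all genes were positive and 8.86% wholly above. By edgeR 0 of 22 passed, and 8 were higher and 0 lower at an unadjusted p below 0.05, against 7.24% and 6.15% of all genes. DESeq2 called 2 of them higher, Chaf1a (adjusted p = 0.000413) and Ccna2 (adjusted p = 0.0206), where it called 0.897% of all genes with an adjusted p higher. Chaf1a, a chromatin assembly subunit, stood at 55.2 ± 14.98 CPM in WT against 115 ± 19.3 CPM in the knockout (log2 fold change 1.06, SE 0.21). Ccna2, the cyclin that follows cyclin E on Cdk2, had 150 ± 42.1 and 263 ± 58.4 CPM (0.81, SE 0.22), and Rrm2, which makes deoxynucleotides, 164 ± 13.6 and 234 ± 47.9 CPM (0.52, SE 0.15). The edgeR adjusted p was 0.298 for each of these 3. The list mean of knockout replicate 3, -0.02, was nearest to WT (-0.19 to -0.09), and replicates 1 and 2 stood at 0.30 and 0.17. Without knockout replicate 3 the list median was 0.34 and edgeR called Rrm2 (adjusted p = 0.0453), and without knockout replicate 1 the median was 0.15.

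Of the pocket proteins and E2F factors, 8 of 12 had positive values (median 0.25), 3 lay wholly above WT (8.86% of all genes did) and 0 below, and 0 passed by edgeR or DESeq2. At an unadjusted edgeR p below 0.05 there were 3 higher, against 7.24% of all genes. Those with the smallest p were E2f8, a repressive E2F (68.1 ± 3.91 CPM in WT against 91.8 ± 8.10 CPM in the knockout), Tfdp1, the DNA-binding partner of E2Fs (150 ± 13.0 and 212 ± 39.9 CPM), and E2f4, which acts with p130 in resting cells (35.1 ± 12.3 and 50.4 ± 6.21 CPM). E2f1, the classical activator, stood at 11.6 ± 2.91 and 11.1 ± 2.01 CPM. E2f4 was 0.81 without WT replicate 3 and 0.30 without WT replicate 2, and the list median was 0.34 without WT replicate 3, 0.16 without knockout replicate 1 and 0.12 on log2(FPKM + 1).

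Of the brakes on the kinases none passed the test. Of 7 listed CDK inhibitors 5 were in the table and tested, 1 had a positive value and 4 negative (median -0.12), and 0 passed by edgeR, 0 had an unadjusted p below 0.05 and 0 were called by DESeq2. Cdkn1b, which encodes p27 and holds cyclin E with Cdk2 inactive, had 14.3 ± 1.57 CPM in WT against 11.2 ± 3.16 CPM in the knockout (log2 fold change -0.36, SE 0.25), with values of -0.61 without knockout replicate 3 and -0.23 without knockout replicate 2. Cdkn1c, p57, was at 0.72 ± 0.50 and 0.46 ± 0.32 CPM, and Cdkn2d, p19, at 63.3 ± 13.1 and 58.4 ± 5.39 CPM. With single libraries left out Cdkn1c ran from -1.12 to -0.16, and Cdkn2d, which is the list median in most fits, from -0.23 without WT replicate 3 to 0.06 without WT replicate 1.

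Genes that set CDK activation, among them the restraining kinases Wee1 and Pkmyt1, had a median of 0.09. Of these, 5 of 8 were positive and 0 passed by edgeR or DESeq2. At an unadjusted edgeR p below 0.05 there was 1 higher, against 7.24% of all genes. Wholly above WT lay 1, as did 8.86% of all genes. Cdc25c, the phosphatase that acts on Cdk1 at mitosis, measured 13.9 ± 1.82 CPM in WT against 22.1 ± 1.61 CPM in the knockout (0.67, SE 0.19, edgeR adjusted p = 0.298), while Cdc37, a co-chaperone of Cdk4, and Pkmyt1, a kinase that restrains Cdk1, had log2 fold changes of 0.14 and 0.21. The list median was 0.04 without WT replicate 3 or without knockout replicate 1, and 0.02 with library size alone as scaling. Cdc37 was 0.08 without knockout replicate 1, and Pkmyt1 ran from 0.12 without WT replicate 2 to 0.41 without WT replicate 3. Genes of cyclin turnover had a median of -0.04 (5 of 11 positive, 0 passed by edgeR or DESeq2). This median turned positive without WT replicate 1 (0.07), 2 (0.08) or 3 (0.03) and without knockout replicate 2 (0.12). It was further below 0 with library size alone as scaling (-0.105) and on log2(FPKM + 1) (-0.102). At an unadjusted edgeR p below 0.05 there was 1 higher, against 7.24% of all genes. Wholly above WT lay 1 and wholly below 1, against 8.86% and 9.70% of all genes. Cks2 (0.28), Cks1b (0.24, and 0.15 without knockout replicate 1), both small CDK-binding subunits, and Cul1 (0.27), the scaffold of the SCF ligase, had the smallest p. Fbxw7, which marks cyclin E for destruction, stood at 7.03 ± 2.23 and 6.05 ± 1.25 CPM.

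Regulators that act on D cyclin genes had negative log2 fold changes in 10 of 12 cases (median -0.19), with 3 wholly below WT (9.70% of all genes were) and 0 above. This list was not split into activators and repressors of those genes. By edgeR 0 passed, and 3 were lower at an unadjusted p below 0.05, against 6.15% of all genes. Fos, an immediate early gene, had 20.6 ± 7.43 CPM in WT against 5.69 ± 1.52 CPM in the knockout (-1.85, SE 0.32, edgeR adjusted p = 0.298). DESeq2 called 0.456% of all genes with an adjusted p lower, and of this list Fos alone (adjusted p = 3.55e-05). Jun, its AP-1 partner, had 74.2 ± 8.01 and 51.2 ± 13.9 CPM (-0.53, and -0.34 without knockout replicate 1), and Foxo3, which holds stem cells quiescent, 57.8 ± 9.46 and 43.3 ± 9.32 CPM. Myc, at 1026 ± 83.0 and 1189 ± 75.9 CPM, was 1 of the 2 with a positive value (0.21). Among 24 tested cyclins and kinases of other phases and of transcription, 15 were positive (median 0.08), 6 lay wholly above and 3 wholly below WT (8.86% and 9.70% of all genes did), and 0 passed by edgeR or DESeq2. At an unadjusted edgeR p below 0.05 there were 5 higher and 2 lower, against 7.24% and 6.15% of all genes. The list median was 0.00 with library size alone as scaling and 0.05 without WT replicate 3. Ccnb1 (0.40) and Cdk1 (0.36), the mitotic pair, and Cdk17 (-0.60) had the smallest p.

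**Figure D4:**
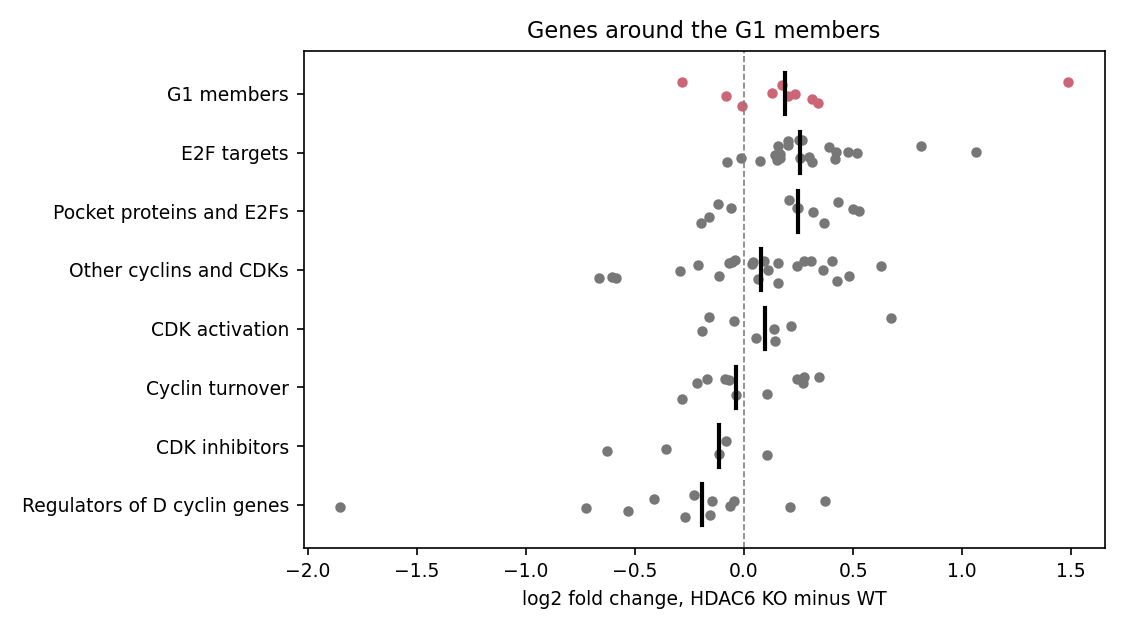
Log2 fold change (horizontal axis, knockout minus WT) of the 10 G1 members and of the tested genes of 7 lists around them (rows); each point is a gene, vertical jitter carries no meaning, and the black bar is the list median. Ccne1 lies apart from the other members at 1.49, and the medians run from -0.19 for regulators of D cyclin genes to 0.25 for E2F targets.

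Markers of the sorted and of other cells moved with the groups in part. The 8 LSK markers summed to 4266.5 to 4694.3 CPM in WT against 3445.3 to 4397.7 CPM in the knockout, and within them Kit stood at 1322.77, 1366.78 and 1127.31 against 724.83, 817.04 and 1081.73 CPM. Kit was lower, with separate groups. Cd34 was too, at 1729.31 to 1821.47 CPM in WT against 1360.11 to 1646.5 CPM in the knockout. So was Mecom, at 47.13 to 68.91 against 24.83 to 46.26 CPM. Ly6a and Cd48 of the same list were higher, with separate groups. Ly6a stood at 60.28, 68.74 and 66.25 against 82.07, 119.27 and 118.92 CPM. Cd48 stood at 179.99, 230.78 and 232.81 against 336.11, 301.95 and 241.40 CPM. The groups overlapped for Flt3, Meis1 and Hlf. Over all tested genes 8.86% lay wholly above WT and 9.70% wholly below. The summed level of 6 mature neutrophil markers was 32.2 to 88.4 CPM in WT against 8.6 to 21.1 CPM in the knockout. Of these, Ltf, Ngp, Camp and S100a8 made up most of the sum. Ltf, Ngp and S100a8 were lower, with separate groups. Camp overlapped between the groups, at 8.26, 3.15 and 11.62 CPM in WT against 1.8, 3.81 and 0.8 CPM in the knockout. Ly6g was at 0.25, 0 and 0.57 CPM in the WT libraries and 0 in each knockout library. Mmp8 overlapped too, at 3.52, 2.72 and 0.72 against 1.69, 3.55 and 0.58 CPM. The sum of 5 natural killer cell markers was 6.6 to 12.6 CPM in WT against 15.7 to 57.7 CPM in the knockout. Of these, Il2rb (2.87 to 5.76 against 8.78 to 33.28 CPM) and Prf1 (0 to 0.53 against 1.02 to 4.46 CPM) had separate groups. Ncr1, Klrb1c and Gzma overlapped. In knockout replicate 1 they stood at 1.62, 3.19 and 0.29 CPM, not above the WT range. Among stem cell genes, Hlf stood at 187.02, 204.16 and 156.64 CPM in WT against 89.45, 68.41 and 168.96 CPM in the knockout, where replicate 3 was again at the WT level. The 4 myeloid progenitor markers summed to 4895 to 7561 CPM in WT against 6603, 16903 and 5524 CPM in the knockout. The summed markers of T cells, B cells and erythroid cells overlapped between the groups. Their part in the differences of Ccne1, Ccnd2 and Ccnd3 was not tested.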

How the data were processed

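Estimated counts and FPKM per gene and library were used as deposited, per the file headers; in each library 19.6% to 20.9% of values were not whole, and the deposited estimated counts were rounded. Per the submitters' processing notes the tools were featureCounts 2.0.3, HISAT2 2.2.1, SAMtools 1.13 and DESeq2 and the build GRCm39, with no roles; the annotation, strand setting and treatment of shared reads were not given in the sources used here. Knockout was compared with WT over all genes with edgeR 4.0.16 (R 4.3.3), quasi-likelihood test (robust, legacy dispersion), after filterByExpr (minimum count 10) and TMM, with Benjamini-Hochberg adjustment and a threshold of 0.05. Standard errors are the log2 fold change over the root of F. A count of 0 allows up to 3 counts, which were 0.106 to 0.114 CPM; this covers counting error only. The deposited FPKM served for levels between genes, for shares (exact permutation tests) and for 1 alternative.

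The members and lists were chosen with earlier results of these data known. Named genes were Hdac6, the members and the 3 of each of 7 lists with the smallest p; Rbl1, Rbl2, E2f1, Fbxw7, Myc, marker genes and overlapping genes were added after their values were seen. Alternatives were RLE or no scaling, no filter, a filter of 5 CPM in 3 libraries, DESeq2 1.42.0, the newer edgeR dispersion method, limma 3.58.1 on log2(FPKM + 1), the replicate number as a block, and each library left out. The tests were checked on simulated data. All pairs of libraries differed by more than counting noise (chi-square per degree of freedom 25.8 to 91.4), so none was taken for a library deposited more than once; this does not show that they came from separate animals.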

Additional observations from a re-analysis of the deposited data

How the results depend on the processing

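Under 14 alternatives the log2 fold changes of 8 members kept their sign, with Ccne1 between 1.20 and 1.75; Rb1 was tested in 13 and turned in 1, and Cdc25a turned in 5. The members' median stayed between 0.11 and 0.24 and was 0.12 without WT replicate 1. DESeq2 called 120 genes higher and 61 lower, among them 1 member higher, Ccne1. Over the libraries left out in turn, edgeR called 0 to 30 genes higher and 1 to 14 lower, and 0 to 1 members higher; the upper values were without knockout replicate 3, and the cause was not tested. Without knockout replicate 1 it called 1 gene higher and 3 lower. Library size alone as scaling shifted the median of all genes to -0.08 and that of the members to 0.11.

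With the replicate block edgeR called 0 members, and Ccne1 stood at 1.43 (adjusted p = 0.456). Libraries of the same number did not deviate together (correlations of 0.03, -0.03 and -0.09 across genes). With 3 libraries per group this does not show whether they shared a preparation. Among the members depth was lowest for Rb1, with 94 to 165 counts per library, and next for Ccne1 in WT, with 188 to 260. Of the other named genes, Cdkn1c had 3 to 31.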
